A study of Homo sapiens with 6 samples.

Results

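The replication-dependent histone genes were read in U87MG, an established human glioblastoma cell line, after exposure to P-bi-TAT. Members were all gene symbols of the array annotation from H1-1 to H1-6 and those starting H2AC, H2BC, H3C or H4C with a number. There were 61 of them among 17687 genes with a probe set of 1 symbol: 6 linker histone H1 genes, 14 H2A, 17 H2B, 9 H3 and 15 H4 genes. RefSeq lists 69 protein-coding genes under these names, and the other 8 were not analysed here (H2AC7, H2AC16, H2AC17, H2BC15, H3C4, H3C12, H3C14 and H3C15). Of the 61 genes, 49 lie on chromosome 6, 11 on chromosome 1 and 1, H4C16, on chromosome 12.

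The treated group was U87MG exposed for 24 h to P-bi-TAT at 30 µM, and the untreated group was the same line given PBS over that time. P-bi-TAT is a synthetic compound that carries a pair of tetrac units and was made to act at the thyroid hormone receptor on integrin αvβ3. Both groups had been held in low-serum medium before exposure, which is known to slow the cell cycle. Total RNA of 3 samples a group was labelled from sites along the whole transcript and hybridised to 6 Clariom S arrays, and each value is a deposited log2 expression level of a probe set. The labels do not say whether the 3 samples of a group were separate cultures, so a p-value here covers no more than the variation among these particular samples.

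Histones pack DNA into nucleosomes: H2A, H2B, H3 and H4 form the core, and H1 binds the linker between cores. The replication-dependent genes supply the bulk of these proteins while DNA is being copied, and they sit in clusters of many near copies. Most of their mRNAs end in a stem-loop instead of a poly(A) tail, and the stem-loop binding protein SLBP carries them through processing, translation and decay. Transcription of the clusters is driven by NPAT under control of cyclin E and CDK2. Amounts of these mRNAs climb in S phase and drop when replication stops, so in a mixed culture they move with the share of cells in S phase. In bulk RNA, fewer cells expressing a gene and less RNA per cell cannot be told apart.

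The promoters of the members that the results turn on are shown because the histone classes differ in the elements they carry. Each is the 250 bases before the start site, from RefSeq (GRCh38.p14), read in the direction of the gene. Capitals mark 5 motifs. TATAA is the core of the TATA element. The letters CCAAT are the box that the factor NF-Y is known to bind. TTTGCAT holds 7 letters of the octamer element, known as a site of OCT1. Linker genes are known for the H1 box, of which AAACACA was searched. The element of H4 promoters that HINFP recognises was searched as GGTCCG. Each motif was searched on both strands, so its reverse complement is also in capitals, and marked runs join where matches overlap. The windows are H1-4 (chr6:26156079-26156328, plus strand), H2BC12 (chr6:27146859-27147108, minus strand), H2BC11 (chr6:27132796-27133045, minus strand), H3C8 (chr6:26271414-26271663, minus strand) and H4C5 (chr6:26204360-26204609, plus strand).
H1-4: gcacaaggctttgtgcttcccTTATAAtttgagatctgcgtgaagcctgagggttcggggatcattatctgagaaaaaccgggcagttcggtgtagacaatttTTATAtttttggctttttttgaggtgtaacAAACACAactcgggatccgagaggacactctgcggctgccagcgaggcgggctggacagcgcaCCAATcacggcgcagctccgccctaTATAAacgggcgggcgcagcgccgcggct
H2BC12: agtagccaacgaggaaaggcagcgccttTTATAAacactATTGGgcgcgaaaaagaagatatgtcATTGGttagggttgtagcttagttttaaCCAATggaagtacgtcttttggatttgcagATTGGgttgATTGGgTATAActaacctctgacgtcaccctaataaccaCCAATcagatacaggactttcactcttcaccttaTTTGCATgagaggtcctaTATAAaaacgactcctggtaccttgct
H2BC11: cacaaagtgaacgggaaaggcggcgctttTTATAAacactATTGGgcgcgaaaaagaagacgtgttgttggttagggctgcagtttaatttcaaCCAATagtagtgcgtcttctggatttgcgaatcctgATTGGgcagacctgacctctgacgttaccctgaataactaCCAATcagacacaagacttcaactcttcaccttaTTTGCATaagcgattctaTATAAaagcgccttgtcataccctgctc
H3C8: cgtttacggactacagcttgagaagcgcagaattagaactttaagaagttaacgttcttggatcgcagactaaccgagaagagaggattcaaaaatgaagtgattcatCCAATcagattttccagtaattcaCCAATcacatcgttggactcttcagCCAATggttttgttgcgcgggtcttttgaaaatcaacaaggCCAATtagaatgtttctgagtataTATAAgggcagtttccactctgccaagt
H4C5: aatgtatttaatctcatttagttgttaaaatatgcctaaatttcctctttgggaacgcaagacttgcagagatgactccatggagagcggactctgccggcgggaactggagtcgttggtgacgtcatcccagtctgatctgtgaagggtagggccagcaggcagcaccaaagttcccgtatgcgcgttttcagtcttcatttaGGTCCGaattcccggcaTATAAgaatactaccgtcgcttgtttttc

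The H1-4 window held 1 H1 box, 1 CCAAT and no octamer letters. H2BC12 held 6 CCAAT and H2BC11 held 4, each with 1 match to the octamer letters a short way before the TATA element. H3C8 held 4 CCAAT with neither an octamer match nor an H4 element. H4C5 held the H4 element and a TATA element, and none of the other 3 motifs. A match is a run of letters, not a shown binding site.

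Over 57 members with a window in the table the same split held by class. CCAAT was found in 6 of 6 H1, 13 of 13 H2A, 17 of 17 H2B and 8 of 8 H3 genes, but in 3 of 13 H4 genes (H4C6, H4C9 and H4C13), against 32.01% of all 35116 windows. GGTCCG was found in 12 of 13 H4 genes and in 1 gene each of H2A, H2B and H3, against 9.43% of all windows. The octamer letters were found in 8 of 13 H2A and 14 of 17 H2B genes and in no other class, against 3.94%. Some H2A and H2B genes lie head to head, so 1 stretch can count in both classes, as in H2AC11 with H2BC11. The H2A and H2B genes with GGTCCG, H2AC20 and H2BC21, are also such a pair. AAACACA was found in 6 of 6 H1 genes and no other member, against 4.82%. TATAA was common to the classes, in 5 of 6 H1, 12 of 13 H2A, 16 of 17 H2B, 8 of 8 H3 and 11 of 13 H4 genes, against 18.93%. The 4 members with no window (H2AC12, H3C11, H4C1 and H4C3) were not searched, and for the 3 members with 2 windows a match in either counted.

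**Figure D1:**
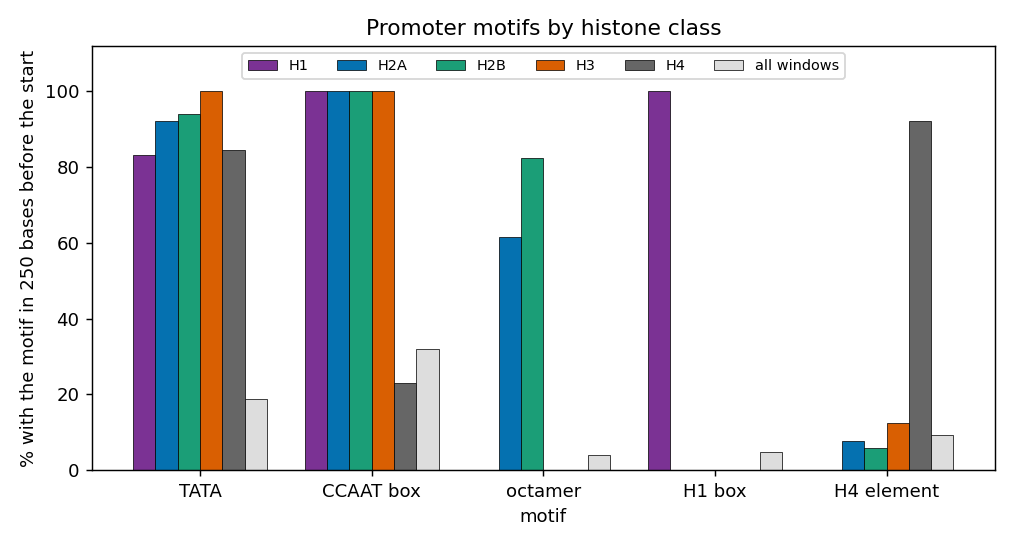
Bars give the percentage of genes of each histone class, and of all 35116 promoter windows (pale bars), with each motif in the 250 bases before the start site, on either strand. CCAAT reaches 100% in H1, H2A, H2B and H3 and 23.08% in H4, while the H4 element reaches 92.31% in H4.

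The arrays differed from each other in ways that touch every value below. P-bi-TAT replicate 1 stood apart: its median over gene probe sets was 3.52, against 4.73 to 4.85 in the other 5 arrays, and it held 4527 distinct values against 23072 to 23438. P-bi-TAT replicates 2 and 3 correlated at r = 0.987 over gene probe sets, the untreated arrays at 0.923 to 0.953. Spike-in controls averaged 10.28 to 10.78 in the 3 P-bi-TAT arrays and 11.95 to 12.39 in the untreated ones. A gene counted as above background when a group mean passed the mean 95th percentile of the negative controls. That cutoff was 7.24 in untreated and 5.95 in P-bi-TAT samples, and 44 of 61 members and 6107 of 17687 genes passed it. It was lower for P-bi-TAT, so some genes passed through that group only, among them H2AC15, H2BC13, H3C1, H4C2 and H4C13. Of the glioma line markers, 4 of 7 were above background (VIM, CD44, TNC and CAV1), GFAP and OLIG2 were not, and neither were 3 epithelial and 4 blood markers. Of 3 neuron markers GAD1 was above background.

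Genes above background as a whole also differed from untreated in the P-bi-TAT arrays, and their medians are given beside those of the histone genes. The lower cutoff for P-bi-TAT lets in genes that passed through that group only. How much this filter adds to the medians was not tested. Over the 6107 such genes, the median log2 difference from untreated was -2.37 in P-bi-TAT replicate 1, 0.48 in replicate 2 and 0.50 in replicate 3. Over the 44 histone genes above background the medians were -0.97, 1.12 and 0.60, and over all 61 they were -0.88, 0.90 and 0.43. Counts with rescaled arrays are therefore given beside those of the arrays as deposited.

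With all 6 arrays, 0 of 61 histone genes passed an adjusted p under 0.05 in limma (Benjamini-Hochberg over all gene probe sets), as did 0.0% of all genes, and the smallest adjusted p of a member was 0.847. At the methods' 1.5-fold limit with an unadjusted p under 0.05, called both limits below, 1 histone gene was higher, against 0.192% of all genes, and 0 were lower, against 4.98%. The gene was H2BC17, with 3.09, 3.13 and 2.59 in untreated replicates 1, 2 and 3 and, in the same order, 3.20, 5.77 and 4.74 in P-bi-TAT samples. The groups did not overlap, but neither group mean was above background, so no fold is given. It was the 1 member with all 3 P-bi-TAT values above the untreated ones, against 0.758% of all genes. Its exact permutation test gave p = 0.1 (two-sided), the smallest that 3 against 3 allows. The median difference was 0.08 over the histone genes and -0.43 over all genes, on the log2 scale.

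The 3 P-bi-TAT arrays gave different pictures of the histone genes. In replicate 2, 50 of 61 members were above their untreated mean, against 48.9% of all genes, and in replicate 3, 43 of 61, against 49.9%. In replicate 1, 9 of 61 were, against 8.44%, and 39 of 61 (63.9%) lay below every untreated array, against 75.0%, and 3 above every one, against 3.12%. Replicates 2 and 3 both lay above every untreated array for 22 members (36.1%), against 19.1% of all genes, and below every one for 2, against 17.9%. The 22 were 2 H1, 6 H2A, 9 H2B, 5 H3 and 0 H4 genes. Whether this split by class is larger than the spread between samples was not tested. The shares beside these counts are of all genes. Genes above background, some of which passed through the P-bi-TAT group only, were higher in replicates 2 and 3, by medians of 0.48 and 0.50. Their shares were not counted.

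**Figure D2:**
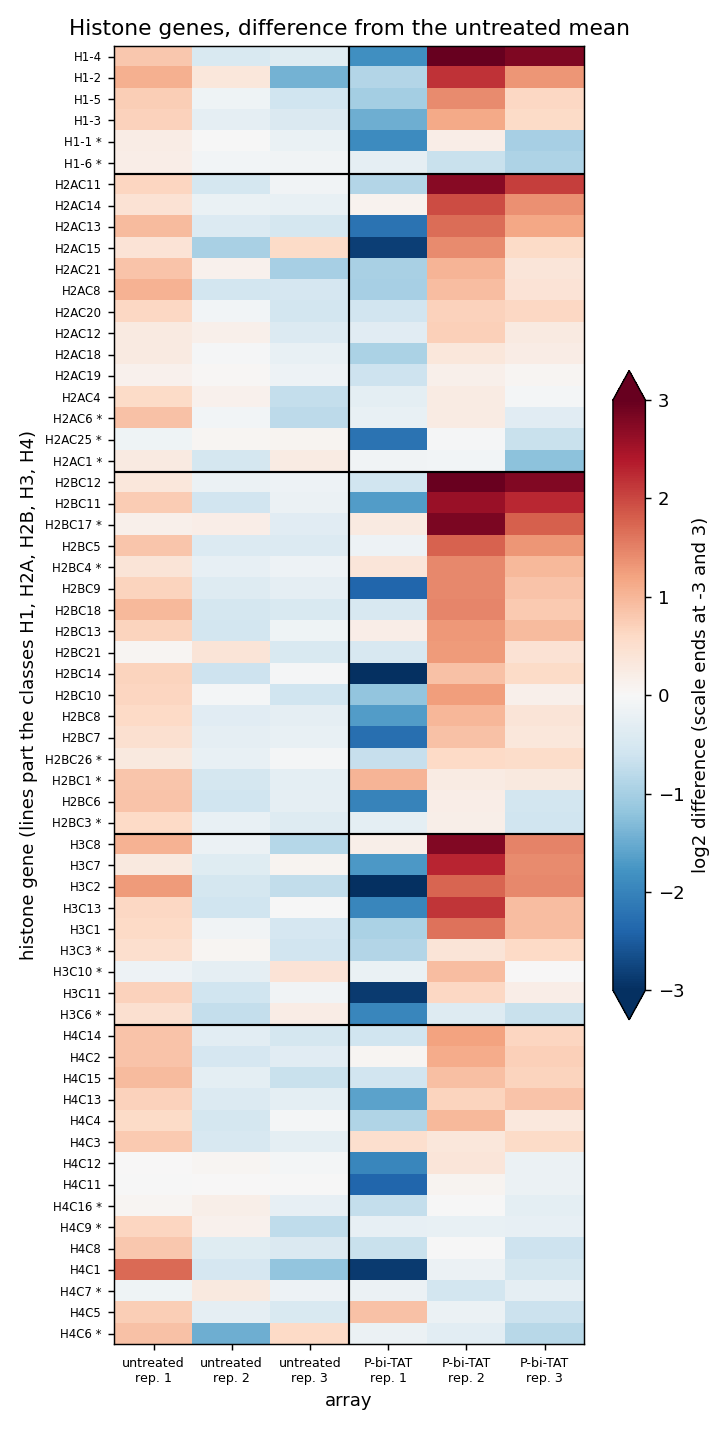
Each row is a histone gene and each column an array; colour gives the log2 difference from the mean of the 3 untreated arrays, blue below and red above, and a star marks genes not above background. P-bi-TAT replicates 2 and 3 are mostly red in H1, H2A, H2B and H3 and pale in H4, and replicate 1 is mostly blue.

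Without P-bi-TAT replicate 1, 17 histone genes (27.9%) were higher past both limits, against 9.26% of all genes, and 0 were lower, against 5.31%. Of the 44 members above background 15 were higher, against 20.6% of the 6107 genes above background. Both sets take in genes that passed the cutoff through the P-bi-TAT group only, H2BC13 and H3C1 among the 15. Counts over genes above background are therefore a description and no test, here and below. None of the 17 passed the adjusted p, whose lowest value was 0.137. By class, 2 of 6 H1, 3 of 14 H2A, 7 of 17 H2B, 5 of 9 H3 and 0 of 15 H4 genes were among them. With quantile normalization of the same 5 arrays, 9 of the 17 kept their place (14.8% of members, against 5.61% of all genes), and 0 were lower, against 4.85%. Of the 44 members above background 7 were higher there, against 9.4% of genes above background. With the intensity trend of each array removed, 9 of the 17 also kept their place (14.8% of members). There 10.1% of the 6107 genes above background were higher, and the share of all genes was not counted. With quantile normalization of all 6 arrays, 11 were higher, against 3.82% of all genes, and 0 lower, against 3.12%. Of the 44 members above background 9 were higher in that fit, against 6.58% of genes above background. With array weights, which let P-bi-TAT replicate 1 count little, 21 were higher, against 10.9%, 1 was lower, against 9.58%, and 0 passed the adjusted p, against 0.0396%. The 9 under quantile normalization were H1-4, H2AC11, H2AC14, H2BC4, H2BC11, H2BC12, H2BC17, H3C7 and H3C8.

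H1-4, the linker histone gene whose promoter with the H1 box is printed above, had the largest difference of all members in that fit. It read 13.50, 12.24 and 12.32 in untreated samples against 10.84, 15.71 and 15.48 in the P-bi-TAT samples, listed here and below as replicates 1, 2 and 3. Replicates 2 and 3 stood above every untreated array and replicate 1 below every one. Without replicate 1 the log2 difference was 2.91 (SE 0.48, unadjusted p = 0.000292, adjusted p = 0.137 in limma), a 7.51-fold higher level. With all arrays it was 1.33, with a 95% interval from -1.74 to 4.39 and an adjusted p of 0.871.

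The other H1 genes spread widely. H1-2, which also makes a polyadenylated mRNA, read 9.51, 8.77 and 7.02 in untreated and 7.55, 10.61 and 9.75 in P-bi-TAT samples, a log2 difference of 1.75 without replicate 1 (SE 0.71, adjusted p = 0.322, limma). Replicate 3 cleared the highest untreated array by a small margin and replicate 2 by a wider one. H1-5 read 14.61, 13.74 and 13.28 against 12.86, 15.30 and 14.50, so replicate 3 lay within the untreated values. H1-3 read 10.34, 9.38 and 9.20 against 8.17, 10.76 and 10.20, also with overlap. H1-1 (7.02, 6.79 and 6.60 against 4.93, 7.01 and 5.80) and the testis gene H1-6 (4.44, 4.16 and 4.14 against 3.97, 3.59 and 3.31) were not above background. In H1-6 all 3 P-bi-TAT values lay below the untreated ones, as in 2 members in all, against 14.5% of all genes.

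Among the H2B genes H2BC12 led. H2BC12, a core histone gene known to make both stem-loop and polyadenylated mRNA, read 14.16, 13.64 and 13.66 in untreated and 13.23, 16.79 and 16.59 in P-bi-TAT samples. Replicates 2 and 3 lay well above every untreated array and close to each other, and replicate 1 lay below all of them. The log2 difference without replicate 1 was 2.87 (SE 0.39, unadjusted p = 6.66e-05, adjusted p = 0.137, limma), 7.31-fold. With all arrays it was 1.72 (95% interval -0.55 to 3.99).

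H2BC11 lies head to head with H2AC11, their start sites 248 bases apart, so the H2BC11 window printed above, read on the other strand, is also the H2AC11 promoter. These genes and the other head-to-head pairs were singled out after their values were seen. H2BC11 read 10.24, 8.92 and 9.30 in untreated and 7.82, 12.09 and 11.75 in P-bi-TAT samples. H2AC11 read 13.67, 12.51 and 12.94 against 12.16, 15.77 and 15.11. In both genes replicates 2 and 3 were above and replicate 1 below every untreated array, and the log2 differences without replicate 1 were 2.43 (SE 0.48) and 2.40 (SE 0.47), with adjusted p = 0.152 and 0.151 in limma.

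The 8 head-to-head H2A and H2B pairs found among members with a promoter window did not always move alike. H2AC12 has no window, so a pair that includes it could not be found. In H2AC13 and H2BC13 the differences without replicate 1 were 1.41 and 1.11 on the log2 scale, and both genes were past both limits. In H2AC14 and H2BC14 they were 1.66 and 0.73, in H2AC20 and H2BC21 0.66 and 0.86, and in H2AC8 and H2BC8 0.67 and 0.70. H2AC14 was past both limits, and the other 5 of these 6 genes were not. H2AC6 and H2BC4, at -0.04 and 1.21, were not above background. In the 2 other pairs, H2AC1 with H2BC1 and H2AC25 with H2BC26, both genes were at background.

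H2AC14 had the highest mean of the H2A genes. It read 15.55, 14.91 and 14.89 in untreated and 15.23, 17.08 and 16.48 in P-bi-TAT samples, so replicates 2 and 3 were above and replicate 1 was within the untreated range. The difference was 1.66 without replicate 1 (SE 0.42, adjusted p = 0.188, limma) and 1.14 with all arrays (95% interval -0.21 to 2.50). H2AC18 was flat by comparison, at 14.23, 13.93 and 13.73 against 13.00, 14.31 and 14.19, a difference of 0.29 without replicate 1 (SE 0.38). Its copy H2AC19 differed by 0.10, and their promoter windows match at 249 bases after a shift of 1 base. Whether the probe sets of such copies read each other's RNA was not tested, so the split between them is uncertain. H2AC20 read 14.39, 13.70 and 13.24 against 13.20, 14.48 and 14.39, a difference of 0.66 (SE 0.45), with replicate 3 level with the highest untreated array. In the H2A class as a whole, differences without replicate 1 ran from -0.66 in the testis gene H2AC1 to 2.40 in H2AC11.

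H2BC18 and H2BC9 were, with H2BC12, the 3 H2B genes with the highest means. H2BC18 read 16.23, 14.71 and 14.80 in untreated and 14.77, 16.71 and 16.02 in P-bi-TAT samples, with replicate 3 below the highest untreated array and a difference of 1.12 without replicate 1 (SE 0.55, adjusted p = 0.397, limma). H2BC9 read 12.04, 10.98 and 11.09 against 9.00, 12.81 and 12.22, a difference of 1.15 (SE 0.46, adjusted p = 0.323, limma). Its replicates 2 and 3 were above and its replicate 1 was far below every untreated array. H2BC5, also known for a polyadenylated mRNA, read 8.49, 7.24 and 7.24 against 7.51, 9.41 and 8.97, a difference of 1.54 (SE 0.50, adjusted p = 0.252, limma). All 17 H2B genes were above their untreated mean in replicate 2 and 15 in replicate 3, and the class ran from -0.20 in H2BC3 to 2.87 in H2BC12 without replicate 1.

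H3 genes had the highest class median in replicates 2 and 3. H3C8 read 10.75, 9.53 and 8.86 in untreated and 9.89, 12.48 and 11.19 in P-bi-TAT samples. Replicates 2 and 3 lay above every untreated array and replicate 1 among them. The difference was 2.12 without replicate 1 (SE 0.64, adjusted p = 0.229, limma), 4.36-fold, and 1.48 with all arrays (95% interval -0.40 to 3.35).

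H3C7 read 10.80, 10.14 and 10.60 against 8.79, 12.79 and 11.93, a difference of 1.85 without replicate 1 (SE 0.44, adjusted p = 0.176, limma). Its replicate 1 lay below every untreated array, the reverse of its replicates 2 and 3. H3C11, the brightest H3 probe set, read 12.06, 10.77 and 11.26 against 8.50, 11.99 and 11.57, with replicates 2 and 3 inside the untreated range and a difference of 0.42 (SE 0.48). H3C1, H3C2 and H3C13, named after their values were seen, differed by 1.27, 1.59 and 1.55 without replicate 1 and were past both limits. H3C2 also spread most between P-bi-TAT arrays, with 5.41 in replicate 1 against 11.14 and 10.85. The 3 other H3 genes, H3C3, H3C6 and H3C10, were not above background.

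Without replicate 1 the H4 class had the smallest median difference in size, -0.05. With all arrays its median was -0.24, and H4C1, at -1.19, had the lowest difference of the 61 members. H4C5, whose printed promoter holds the H4 element and no CCAAT, had the highest mean of the 61 probe sets and read 17.89, 16.89 and 16.71 in untreated and 18.05, 16.98 and 16.53 in P-bi-TAT samples. Its highest value was in replicate 1, the array in which 39 members lay below every untreated one, and the groups overlapped. The difference was 0.02 with all arrays (95% interval -1.33 to 1.37) and -0.41 without replicate 1 (SE 0.47).

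H4C3 read 16.25, 15.00 and 15.18 against 15.97, 15.82 and 16.05, a difference of 0.46 without replicate 1 (SE 0.48), all 3 P-bi-TAT values lying within the untreated range. H4C8 read 13.59, 12.42 and 12.35 against 12.11, 12.78 and 12.18, a difference of -0.31 (SE 0.50). H4C11, named after its values were seen, was almost constant in the untreated samples at 12.65, 12.66 and 12.65, and read 10.27, 12.75 and 12.47 in P-bi-TAT samples. Its window matches that of H4C12 at 245 of 250 bases, and those of H4C14 and H4C15 are identical, and cross-reading between the probe sets of these copies was not tested either. The highest H4 differences without replicate 1 were 0.93 in H4C14 and 0.92 in H4C2, with unadjusted p = 0.106 and 0.101 in limma. In 0 of 15 H4 genes did replicates 2 and 3 both lie above every untreated array, against 19.1% of all genes.

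**Figure D3:**
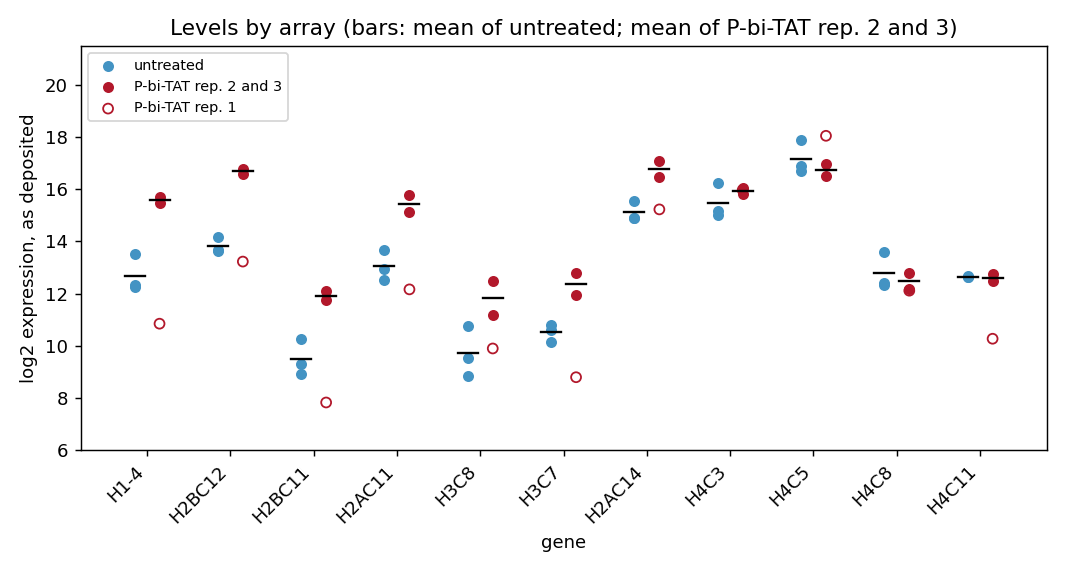
Points are deposited log2 levels of 11 histone genes on each array: untreated (blue), P-bi-TAT replicates 2 and 3 (filled red) and replicate 1 (open red); bars are the mean of the 3 untreated arrays and of P-bi-TAT replicates 2 and 3. The 7 genes at left were picked among those past both limits without replicate 1, so their filled red points lie above all blue ones. Other bright genes of these classes, such as H2BC18 and H1-5, overlapped and are not shown. In the 4 H4 genes at right the filled red points overlap the blue ones, and H4C14 and H4C2, with the highest H4 differences, are not shown.

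In replicates 2 and 3 the H3 class had the highest median, H2A the next to lowest and H4 the lowest. Against the untreated mean, the H3 median was -1.72 in replicate 1, 1.62 in replicate 2 and 0.91 in replicate 3. H1 gave -1.24, 1.27 and 0.59, H2B gave -0.59, 1.28 and 0.58, and H2A gave -0.75, 0.71 and 0.32. H4 gave -0.60, 0.09 and -0.18, so that in replicate 1, with H3 lowest and H2B and H4 highest, the order was nearly the reverse. Over the H2A genes above background the median was 0.93 in replicate 2 and 0.40 in replicate 3. Over the H4 genes above background it was 0.37 and 0.32, beside 0.48 and 0.50 over all genes above background. All of these sets hold genes that passed the cutoff through the P-bi-TAT group only. In H4 these include H4C2 and H4C13, at 0.72 and 0.84 in replicate 3.

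The order of H3 over H2A over H4 was the same after quantile normalization. Without replicate 1 the medians were 1.27 in H3, 0.93 in H1, 0.86 in H2B, 0.58 in H2A and -0.05 in H4, and with quantile normalization 0.87, 0.51, 0.58, 0.13 and -0.22. Over the H4 genes above background the median was 0.46, and -0.10 with quantile normalization. That set includes H4C2 (0.92) and H4C13 (0.76), which passed the cutoff through the P-bi-TAT group only. With all 6 arrays the class medians were 0.25, 0.21, 0.41, 0.04 and -0.24 in the same order. The H4 median then turned positive under other scalings of the arrays (0.14 to 0.27). The classes were not tested against each other, since the genes of a class share samples and near-identical sequence.

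**Figure D4:**
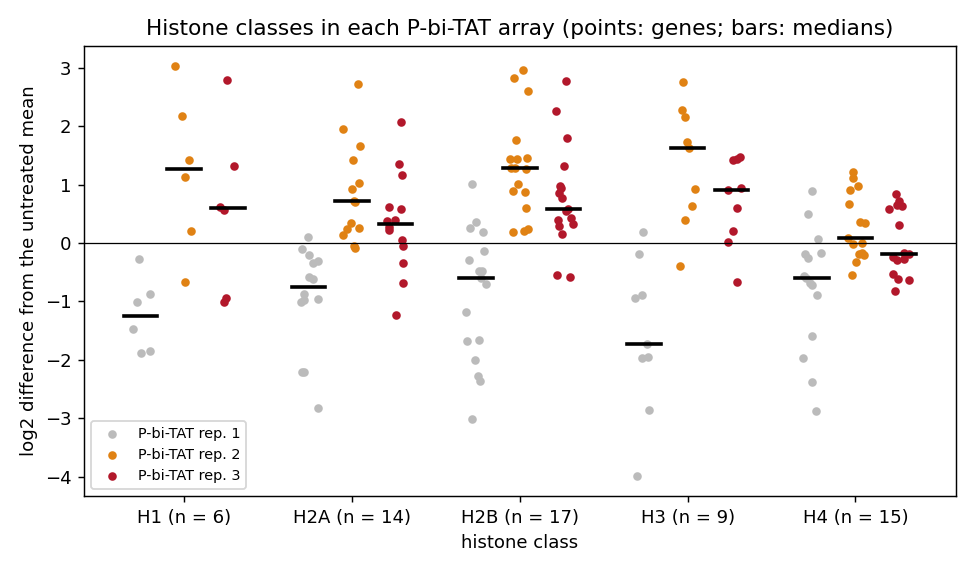
Each point is a histone gene, its log2 difference from untreated (mean of 3 arrays) in P-bi-TAT replicate 1 (grey), 2 (orange) or 3 (red), and black bars are class medians. In replicate 2 the medians run from 0.09 in H4 to 1.62 in H3, and in replicate 1 all 5 are negative.

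The untreated arrays differed in histone level too. Untreated replicate 1 was the highest of the 3 untreated arrays in 52 of 61 members (85.2%), against 37.6% of all genes. Its median difference from the untreated mean was 0.63 over the histone genes and 0.02 over all gene probe sets. Replicates 2 and 3 stood at -0.26 and -0.28. In each class the median of untreated replicate 1 was the highest of the 3, from 0.50 in H2A to 0.73 in H4. The median of P-bi-TAT replicate 2 lay above that of untreated replicate 1 in H1, H2A, H2B and H3 and below it in H4, and the median of P-bi-TAT replicate 3 lay above it in H3 and below it in the other 4 classes.

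Members with known polyadenylated mRNA, a list fixed with earlier results of these data known, were H1-2, H2AC6, H2BC4, H2BC5, H2BC12 and H2BC21. Their median difference was 0.90 with all arrays and 1.37 without replicate 1, against 0.08 and 0.67 over all 61 members and -0.43 and -0.02 over all genes. With all arrays 0 of 6 were past both limits, and without replicate 1, 4 of 6 were, against 9.26% of all genes and 20.6% of those above background. With quantile normalization of the same 5 arrays 2 of 6 were, H2BC12 and H2BC4, against 5.61% of all genes. H2BC4 (4.38, 3.75 and 3.84 against 4.35, 5.43 and 4.96) was among the 4 but not above background. H2BC21 read 7.04, 7.37 and 6.53 against 6.49, 8.26 and 7.41, with replicate 3 just above the highest untreated array. H2AC6 (6.09, 5.11 and 4.41 against 4.99, 5.46 and 4.86) was not above background and overlapped. The testis members H1-6, H2AC1 and H2BC1 were all at background, H2AC1 at 4.36, 3.56 and 4.31 against 3.97, 3.99 and 2.84 and H2BC1 at 4.25, 2.90 and 3.14 against 4.44, 3.68 and 3.71.

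Histone variants that are not among the members gave no call with all arrays, at 0 of 10 higher and 0 lower, with a median difference of -0.50. Without replicate 1 the median was 0.30, and 3 of 10 were higher past both limits. With quantile normalization of the same 5 arrays the median was 0.12, none of these 3 was past them (unadjusted p = 0.128, 0.0681 and 0.0762 in limma for H2AZ1, H2AX and MACROH2A1), and H3-3B was lower. H2AZ1, a variant found at promoters, read 13.34, 13.21 and 13.03 in untreated and 11.79, 14.60 and 14.14 in P-bi-TAT samples, a difference of 1.18 without replicate 1 (SE 0.38, adjusted p = 0.252, limma). H2AX, phosphorylated at DNA breaks, and MACROH2A1 were the others, at 1.35 and 1.21. H3-3B, which encodes the H3.3 protein, read 13.32, 13.84 and 14.17 against 11.21, 13.42 and 12.83, a difference of -0.66 (SE 0.43) with unadjusted p = 0.165 in limma. After quantile normalization it was -1.10, with unadjusted p = 0.0318 in limma. Its sign was opposite to that of H3C7 and H3C8 in the same arrays. H3-3A was not analysed here.

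Genes for the synthesis and 3′ processing of histone mRNA had a median difference of -0.54 over 16 genes with all arrays and 0.39 without replicate 1. With all arrays 0 were higher and 1 was lower past both limits, LSM11 of the U7 snRNP that cuts histone pre-mRNA, which was not above background (5.31, 6.05 and 6.59 against 4.09, 4.99 and 4.97). Without replicate 1, 2 were higher, LSM10, also of the U7 snRNP, and UPF1, which acts in histone mRNA decay. After quantile normalization neither was past both limits (unadjusted p = 0.0536 and 0.0683 in limma), the median was -0.02, and 1 gene was lower, CSTF2 of the mRNA cleavage machinery, at -1.08. SLBP read 9.30, 7.72 and 7.99 in untreated and 5.98, 8.87 and 8.86 in P-bi-TAT samples, a difference of 0.53 without replicate 1 (SE 0.53). Like most members it was highest of the untreated arrays in replicate 1, and its replicates 2 and 3 lay below that value. NPAT read 4.68, 5.03 and 7.55 against 2.57, 4.73 and 5.75 and was not above background.

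Histone chaperones had a median of -0.41 over 17 genes with all arrays and 0.40 without replicate 1. CHAF1B, a subunit of the chromatin assembly factor that loads new H3 and H4 behind the fork, was lower past both limits with all arrays. It read 10.02, 9.00 and 9.40 in untreated and 7.83, 8.64 and 8.29 in P-bi-TAT samples, a difference of -1.22 (SE 0.46, unadjusted p = 0.0333, adjusted p = 0.847, limma). All 3 P-bi-TAT values lay below the untreated ones, and the difference without replicate 1 was -1.01. With quantile normalization of all 6 arrays it was -0.57 (unadjusted p = 0.421, limma), and the call was lost. Without replicate 1, 4 chaperones were higher past both limits: RBBP4 (2.11), a histone-binding subunit of several complexes, NASP (1.83), which shields H3 and H4 as well as H1, ASF1B (1.12) and NAP1L4 (0.97). CHAF1B was the 1 lower gene in that fit. With quantile normalization of the same 5 arrays the list's median was 0.03, RBBP4 and NASP stayed higher, ASF1B and NAP1L4 did not (unadjusted p = 0.173 and 0.169, limma), and CHAF1B (-1.37) and CABIN1 (-1.09), of the H3.3 chaperone complex HIRA, were lower.

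DNA replication genes had a median of -0.70 over 25 genes with all arrays and 0.17 without replicate 1, and 0 were past both limits with all arrays. Without replicate 1, 5 of 25 were higher and 0 lower: TK1 (1.92), the thymidine salvage kinase, the licensing factor CDT1 (1.37), and GINS1 (0.95), GINS2 (1.31) and GINS3 (1.12) of the replicative helicase. Quantile normalization of the same arrays left TK1 (1.53) and CDT1 (0.98) higher but not the GINS genes (unadjusted p = 0.208, 0.140 and 0.0942, limma), with 0 lower and a median of -0.22. The genes of the helicase core, MCM2 to MCM7, were not among them. The median of this list was below that of the 6107 genes above background (0.50) and that of the histone genes (0.67) in the same arrays. All counts in the related lists stand against the same 9.26% of all genes and 20.6% of genes above background without replicate 1, and those with quantile normalization against 5.61% higher and 4.85% lower of all genes. The differences between lists were not tested.

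**Figure D5:**
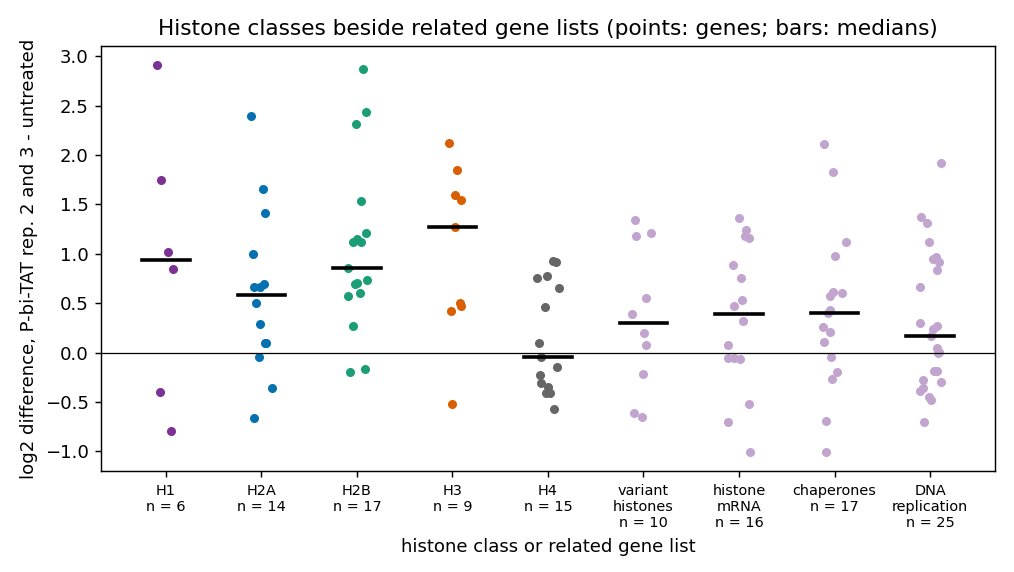
Points are genes and bars medians of the log2 difference between P-bi-TAT replicates 2 and 3 and the untreated arrays, for the histone classes and for 4 related lists (histone variants, histone mRNA synthesis and processing, chaperones and DNA replication). Medians run from -0.05 in H4 to 1.27 in H3, with the related lists between 0.17 and 0.40.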

How the data were processed

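RNA of 6 U87MG samples was measured on Clariom S arrays. The values deposited by the authors are log2 levels, with a column for each array. RMA and version 4.0.1.36 of the Transcriptome Analysis Console stand in the submitters' notes, SST-RMA in the methods, and it is unclear which of them was applied. The distribution of values differs between the 6 columns, which were used as deposited. Without the 2903 controls, 21448 probe sets were fitted by limma 3.58.1 (lmFit, eBayes; R 4.3.3), and p-values were adjusted over all of them by Benjamini-Hochberg. Symbols came from the array annotation (17709 probe sets with 1 symbol), and each member had 1 probe set. Array number limits the precision. Named genes were all H1 genes, the 3 brightest of each other class, calls with all arrays, the extremes without P-bi-TAT replicate 1, and the polyadenylated and testis members; others were chosen after their values were seen. Related genes were calls with all arrays and a few fixed names. The members and lists were chosen with earlier results of these data known, and the promoter motifs after others were looked at. Same-numbered samples deviated together at r = 0.304, 0.0361 and 0.333, and different-numbered ones at -0.378 to 0.150. The methods name a one-way test, so replicate numbers were not treated as pairs in the main fit. A replicate block was run as an alternative. Alternatives were left-out arrays, quantile and median scaling, array weights, a filter on dim probe sets, other eBayes settings, the one-way test of the methods and, added after seeing the data, removal of each array's intensity trend.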

Additional observations from a re-analysis of the deposited data

How the results depend on the processing

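No histone gene passed the adjusted p under any alternative run. The smallest adjusted p of a member ranged from 0.0553 with array weights to 0.9998 with median centring. The main count past both limits was 1 higher and 0 lower, against 0.192% and 4.98% of all genes. The higher count became 11 with quantile normalization, against 3.82% of all genes. It became 21, against 10.9%, with array weights, which gave P-bi-TAT replicate 1 a weight of 0.11. It became 3 with an intensity trend in eBayes, 8 with median centring and 12 with the intensity trend removed. Shares of all genes were not counted in these last settings, so their counts cannot be read as particular to histone genes. The higher count became 0 with robust eBayes, without the dimmest probe sets, and by the one-way test of the methods. Leaving out 1 array gave 0 to 17 higher and 0 to 1 lower. The 17 came only without P-bi-TAT replicate 1, against 9.26% of all genes. Without that array the count was 9 with quantile normalization, against 5.61% of all genes, and 9 with the trend removed, all among the 17. With the trend removed from those arrays, 10.1% of genes above background were higher, and the share of all genes was not counted. The lower count was 1 with array weights and 1 by the one-way test. Whether P-bi-TAT replicate 1 differs for a technical reason was not tested.

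The median over all members ran from -0.28 (without P-bi-TAT replicate 2) to 0.67 (without replicate 1) with 1 array left out. It ran from -0.32 to 0.93 in H1, -0.29 to 0.58 in H2A, -0.03 to 0.86 in H2B, -0.15 to 1.27 in H3 and -0.29 to 0.08 in H4. The H4 median of -0.24 became 0.27 with median centring, 0.23 with quantile normalization and 0.14 with the trend removed; these settings moved the median of all genes from -0.43 to 0.08, -0.00 and -0.01. With the replicate block the count was 1 higher and the median 0.08, and it changed no call; same-numbered samples did not all correlate best with each other. Averaging probe sets of a symbol was not run, since each member has 1. Dim members, 17 of 61, limit what the arrays can show.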
